A study of Homo sapiens with 36 samples.

Results

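The transcripts of MYC, of its partner MAX and of 7 genes that make, break down or regulate polyamines (ODC1, AZIN1, OAZ1, AMD1, SRM, SMS and SAT1) were followed across the 4 conditions of an RNA-seq experiment in HepG2-IGF1R-KO cells. HepG2 is a human hepatoma line, and in these cells the gene of the IGF-1 receptor had been targeted. The 9 genes were chosen by name from the 57771 genes of the count table, with earlier results of these data known. All 9 passed the filter on low counts, with 976 to 72204 counts in a library. There were 9 libraries in each of 4 groups: insulin-stimulated and untreated cells in insulin-resistant medium, and insulin-stimulated and untreated cells in normal medium. Stimulated cells received human insulin at 3 nM during 18 h. Insulin-resistant medium contained 20 mM glucose, palmitic, linoleic and oleic acids at 0.5 mM, and 1 nM human insulin, and cells were kept in it for 72 h. Whether its insulin was withdrawn from the cells called untreated is not stated, so in that medium the step may be between 3 nM and 1 nM. All groups share the IGF1R-KO genotype and a time label of 72 h. The labels call the libraries of a group biological replicates, without saying how many clones or cultures they came from.

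MYC is a transcription factor that binds DNA as a dimer with MAX and drives genes of growth, ribosome production and metabolism. Polyamines are small, positively charged molecules that bind nucleic acids and are needed for growth. ODC1 (ornithine decarboxylase) makes putrescine, a step that limits the pathway, and is a textbook target of MYC. AMD1 makes decarboxylated S-adenosylmethionine, from which SRM (spermidine synthase) and SMS (spermine synthase) take the group they add to putrescine and to spermidine. SAT1 acetylates spermidine and spermine for breakdown or export. OAZ1 (antizyme) binds the ODC1 protein and sends it to the proteasome, and AZIN1 (antizyme inhibitor) binds antizyme in its place. Antizyme, ODC1, AMD1 and SAT1 are also controlled strongly at translation and protein turnover, which transcript counts do not measure.

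In insulin-resistant medium, totals were 60.3M to 73.3M counts in stimulated libraries and 26.6M to 102M counts in untreated ones. In normal medium, stimulated libraries held 30.6M to 112M counts and untreated ones 59.9M to 117M. IGF1R was read in every library, at 77.8 to 134 CPM (counts scaled to the library total), and with no unedited control the counts do not check the edit. Hepatocyte markers were abundant in all libraries. COL1A1, a collagen of stromal cells, stood at 0.784 to 1.70 CPM in 6 libraries (the untreated replicates 1 to 3 in insulin-resistant medium and the stimulated replicates 4 to 6 in normal medium) and at 8071 to 31870 CPM in the other 30. The 20 stromal markers summed to 197 to 249 CPM in the 6, where COL1A2 was at 0 to 0.0263 CPM. In the 30 their sum was 26853 to 84634 CPM. The 22 hepatocyte markers summed to 32654 to 37710 CPM in the 6, against 12031 to 29730 CPM in the 30. Endothelial markers summed to at most 4.32 CPM and leukocyte markers to at most 46.1 CPM. A further 12 libraries had at least 20000 CPM of FN1 (fibronectin): in insulin-resistant medium stimulated replicates 4 to 9 and untreated replicates 7 to 9, and in normal medium untreated replicates 7 to 9. Fitted changes of the 9 genes below are therefore also given for the 30 libraries, and some for the 18 with collagen present and FN1 below 20000 CPM. The 18 hold 6 stimulated and 6 untreated libraries in normal medium, but only 3 of each in insulin-resistant medium. There the untreated ones are replicates 4 to 6, all of 24 May, and the stimulated ones replicates 1 to 3, all of April. Insulin in that medium is thus compared across batch dates in the 18, with the 24 May term resting on normal-medium libraries. Libraries numbered 1 to 3, 4 to 6 and 7 to 9 within a group shared their collagen and FN1 class, while the p-values treat all 9 as independent. Likeness within such triplets was not tested otherwise, and it varied. In untreated cells in normal medium SMS stood at 103.6, 109 and 104 CPM (scaled by TMM) in replicates 1 to 3. In replicates 4 to 6 SMS stood at 81.43 to 97.71 CPM, and in replicates 7 to 9 at 65.07 to 66.02 CPM. Stimulated replicates 1 to 3 in normal medium differed among themselves, with SAT1 at 159.4, 355.9 and 167.3 CPM. In bulk RNA, fewer cells of a type cannot be told apart from less RNA per cell. The origin of the collagen transcripts was not tested, nor which cells the counts of the 9 genes came from.

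In normal medium, insulin raised MYC, MAX, ODC1, AMD1, SRM and SAT1, and AZIN1, OAZ1 and SMS did not pass the test. When each triplet was summed to 1 sample, only ODC1 and SAT1 passed. Called means an adjusted p under 0.05 in edgeR's quasi-likelihood test over 18573 genes, and among all genes 19.1% were called higher and 12.9% lower (16.6% and 17.1% in the 30 libraries, 21% and 10.9% in the 18). MYC stood at 246.9, 290.2 and 563 CPM (lowest, median and highest, scaled by TMM) in the 9 stimulated libraries, against 152.7, 180.3 and 270.4 CPM in the 9 untreated ones. The ranges overlap, since stimulated libraries at 246.9 and 263.3 CPM lie under an untreated one at 270.4 CPM. The 3 highest stimulated libraries, at 479.4 to 563 CPM, are the 3 without collagen, and the other 6 reached 246.9 to 418.2 CPM. The log2 fold change of MYC was 0.97 ± 0.14 (SE; edgeR adjusted p = 1.88e-06). It was 0.66 ± 0.08 in the 30 libraries and 0.77 ± 0.10 in the 18. Within the batches of 22 April, 11 April and 24 May it was 0.77, 1.08 and 1.17, each past the threshold. Each batch holds 1 stimulated library without collagen, namely replicates 5, 6 and 4. It is 1 of 5 stimulated libraries on 22 April, and 1 of 2 on 11 April (replicates 6 and 9) and on 24 May (2 and 4). With every 3 neighbouring libraries summed to 1 sample the log2 fold change of MYC was 0.91, which missed the threshold (edgeR adjusted p = 0.058). MAX stood at 46.68, 52.43 and 62.76 CPM in stimulated cells, against 34.96, 39.27 and 46.71 CPM in untreated cells, ranges that meet at their edge. The log2 fold change of MAX was 0.44 ± 0.07 (edgeR adjusted p = 1.22e-05), and 0.38 in the 30 libraries. Scaled to the 22 hepatocyte markers it was 0.48 and missed the threshold (edgeR adjusted p = 0.0719), and within the batches it passed only on 24 May (0.29 on 22 April, 0.48 on 11 April and 0.58 on 24 May).

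ODC1 was the only one of the 9 whose stimulated and untreated ranges were apart, which held in the higher direction for 3.41% of all genes. Stimulated libraries stood at 351.9, 478.1 and 794 CPM (lowest, median and highest), against 212.1, 253 and 299.8 CPM in untreated ones. The highest 3, at 769.7 to 794 CPM, again lacked collagen, and stimulated replicate 2, with collagen, reached 694.3 CPM. For ODC1 the log2 fold change was 1.19 ± 0.14 (SE; edgeR adjusted p = 8.03e-08), or 0.89 ± 0.07 in the 30 libraries and 0.94 ± 0.10 in the 18. It passed within all 3 batches (0.92, 1.39 and 1.41 for 22 April, 11 April and 24 May) and with summed triplets (1.11). The promoter regions of ODC1, SRM and SAT1 are shown because MYC and MAX bind the letters CACGTG (the E-box, the same on both strands), printed in capitals. They are RefSeq sequence of build GRCh38.p14, where windows of 300 bases, 250 before to 50 after a start, matched 7 of the 9 genes and gave 11 windows. Of all 35116 such windows 7.26% hold the motif at least 1 time and 0.66% at least 2 times, and 2 of the 11 hold it. ODC1 has it at chr2:10448036-10448041 and chr2:10448002-10448007, at positions -29 and 6 from an annotated internal start, inside an intron of a longer annotated transcript. SRM has it at chr1:11060212-11060217, at position -199 from its start. The windows searched around the starts of MAX, AMD1, OAZ1, SMS and SAT1 do not contain these letters. A match is a description of the sequence, and binding was not measured. The ODC1 stretch is chr2:10447983-10448120 on the minus strand, that of SRM chr1:11060019-11060268 on the minus strand, and that of SAT1 chrX:23782923-23783172 on the plus strand.
ODC1: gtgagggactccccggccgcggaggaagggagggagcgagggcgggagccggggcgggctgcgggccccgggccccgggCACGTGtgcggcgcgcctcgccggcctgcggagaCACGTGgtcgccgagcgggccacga
SRM: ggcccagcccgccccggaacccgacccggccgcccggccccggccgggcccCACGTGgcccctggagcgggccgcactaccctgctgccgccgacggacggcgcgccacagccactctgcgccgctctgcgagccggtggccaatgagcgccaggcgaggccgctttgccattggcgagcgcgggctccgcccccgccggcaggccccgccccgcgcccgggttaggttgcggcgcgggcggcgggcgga
SAT1: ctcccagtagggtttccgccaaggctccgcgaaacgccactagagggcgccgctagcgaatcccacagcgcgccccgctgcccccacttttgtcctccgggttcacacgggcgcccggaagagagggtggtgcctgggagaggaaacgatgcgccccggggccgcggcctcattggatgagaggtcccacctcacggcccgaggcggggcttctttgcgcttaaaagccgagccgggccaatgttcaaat

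SAT1, on the breakdown side, rose with insulin in normal medium beside ODC1. It stood at 133.3, 206.8 and 412.9 CPM in stimulated libraries, against 70.98, 102.7 and 137.5 CPM in untreated ones. The ranges overlap by a single pair of libraries, since stimulated replicate 7 at 133.3 CPM lies under untreated replicate 6 at 137.5 CPM. The log2 fold change was 1.24 ± 0.18 (SE; edgeR adjusted p = 1.59e-06), 0.92 ± 0.10 in the 30 libraries and 1.15 with summed triplets, all past the threshold. Within the 11 April and 24 May batches it was 1.37 and 1.39, and on 22 April 1.04, which missed the threshold (edgeR adjusted p = 0.0736).

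Of the steps between, AMD1 stood at 111.3, 137.4 and 169.6 CPM in stimulated libraries, against 85.96, 98.07 and 113.2 CPM in untreated ones. A few libraries of the groups overlap between 111.3 and 113.2 CPM. AMD1 had a log2 fold change of 0.45 ± 0.07 (SE; edgeR adjusted p = 9.27e-06), and 0.37 in the 30 libraries. Of the batches, only 24 May passed (0.37 on 22 April, 0.45 on 11 April and 0.52 on 24 May). SRM stood at 98.83, 162.6 and 207.7 CPM in stimulated libraries, against 79.35, 118.2 and 139.2 CPM in untreated ones, and much of the ranges overlap. Its log2 fold change of 0.44 ± 0.14 (edgeR adjusted p = 0.0136) is the least firm of the 6. It was 0.38 ± 0.14 in the 30 libraries (edgeR adjusted p = 0.0352) and 0.47 in the 18, where it was not called (edgeR adjusted p = 0.0669). The batches gave 0.16 on 22 April, 0.11 on 11 April and 1.09 on 24 May, of which only the last passed. Leaving out any 1 of stimulated replicates 1, 2 and 4 or untreated replicates 4, 5 and 6 ended the call too, at 0.30 to 0.36.

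The other 3 genes of the pathway did not pass the test in this comparison. SMS stood at 68.99, 93.93 and 108.6 CPM in stimulated libraries, against 65.07, 86.78 and 109 CPM in untreated ones, almost the same range, with a log2 fold change of 0.07 ± 0.11, and 0.04 ± 0.13 in the 30 libraries. AZIN1 stood at 171.6, 185 and 210.8 CPM in stimulated libraries, against 145.2, 172.8 and 236 CPM in untreated ones, with a log2 fold change of -0.02 ± 0.10, and -0.01 ± 0.08 in the 30. In the 18 libraries AZIN1 was called higher, at 0.26 ± 0.06 (edgeR adjusted p = 0.0032), and the 3 highest untreated libraries are those rich in FN1. OAZ1 stood at 296.2, 552.6 and 671.1 CPM in stimulated libraries, against 477.6, 552.3 and 611.5 CPM in untreated ones. Its 3 low stimulated libraries, at 296.2 to 360.3 CPM, are those without collagen. The log2 fold change of OAZ1 was -0.16 ± 0.14, and 0.03 ± 0.07 in the 30 libraries. Stromal markers had a median log2 fold change of -0.67 with insulin in normal medium, and -0.13 in the 30 libraries, against 0.09 and -0.28 for the hepatocyte markers.

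**Figure D1:**
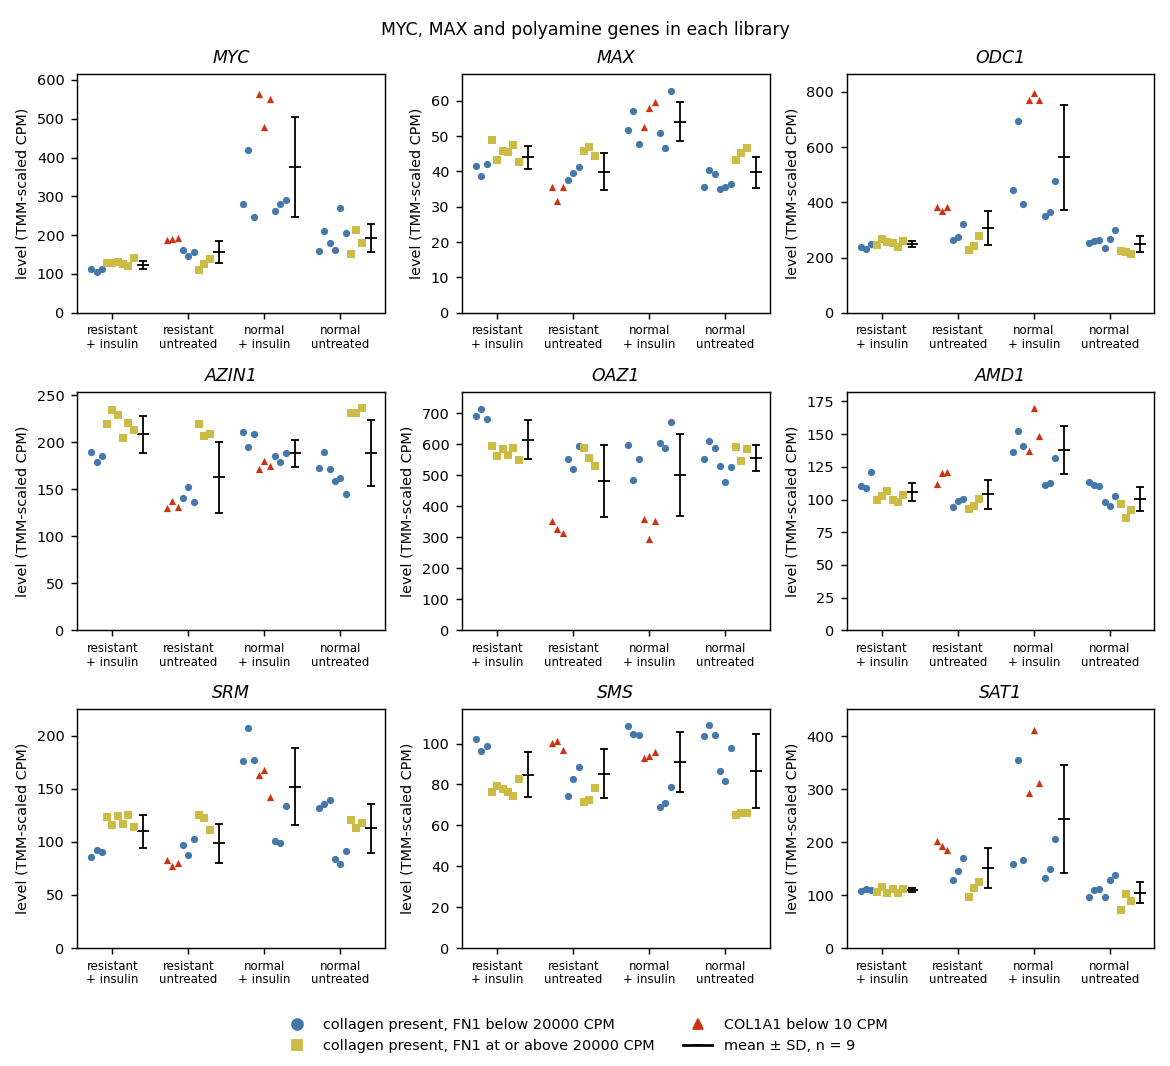
Level of each of the 9 genes in every library (vertical axes, TMM-scaled CPM) by group, with points marked by collagen and FN1 content and bars giving the mean ± SD of 9 libraries. ODC1 in stimulated cells in normal medium (351.9 to 794 CPM) lies above all untreated libraries in that medium (212.1 to 299.8 CPM), and the stimulated libraries in insulin-resistant medium lie close together.

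In insulin-resistant medium, insulin moved none of the 9 genes past the threshold, and edgeR called 0% of all genes in either direction, also in the 30 libraries, and 0.947% higher and 1.13% lower in the 18. At an unadjusted p under 0.05 there were 4520 genes with all libraries and 970 in the 30, and DESeq2 called 50 higher and 37 lower, none of the 9 among them. MYC stood at 105.3, 125.8 and 141.4 CPM in stimulated libraries, against 110.9, 157.3 and 192.9 CPM in untreated ones, where the 3 highest (186.8 to 192.9 CPM) lack collagen. MYC had a log2 fold change of -0.35 ± 0.15 (SE; edgeR adjusted p = 0.152), and -0.09 ± 0.09 in the 30 libraries. ODC1 stood at 231.5, 247.6 and 265.6 CPM in stimulated libraries, against 226.8, 277.8 and 384.7 CPM in untreated ones. That is a log2 fold change of -0.29 ± 0.15, and -0.02 ± 0.08 in the 30 libraries (95% interval -0.18 to 0.14). SAT1 stood at 103.3, 109.8 and 114.7 CPM in stimulated libraries, against 96.02, 146.3 and 202.3 CPM in untreated ones. For SAT1 the log2 fold change was -0.43 ± 0.18, and -0.05 ± 0.12 in the 30 libraries (95% interval -0.27 to 0.18). For all 3 genes the untreated libraries without collagen were the highest of their group, and the stimulated libraries all contain collagen. The other 6 genes had log2 fold changes of 0.00 (AMD1) to 0.36 (OAZ1), and of -0.13 (SRM) to 0.18 (SMS) in the 30 libraries. Scaled to hepatocyte markers MYC, ODC1 and SAT1 stood at 0.09, 0.15 and 0.04, with the median of all genes moved up by 0.35. The stromal and hepatocyte marker medians here were 0.50 and -0.51, and -0.33 and -0.07 in the 30 libraries.

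In untreated cells, insulin-resistant medium raised SAT1 alone among the 9, against 12.4% of all genes called higher and 7.98% lower. That call was lost when the libraries without collagen were left out. SAT1 stood at 96.02, 146.3 and 202.3 CPM in insulin-resistant medium, against 70.98, 102.7 and 137.5 CPM in normal medium. The 3 libraries without collagen were at 185.4 to 202.3 CPM and the other 6 in that medium at 96.02 to 170.8 CPM. SAT1 had a log2 fold change of 0.54 ± 0.17 (SE; edgeR adjusted p = 0.0236), and in the 30 libraries 0.23 ± 0.10, which was not called (edgeR adjusted p = 0.109), nor was 0.13 ± 0.18 in the 18. The call was also lost at 0.46 without untreated replicate 2 in insulin-resistant medium, and within each batch (0.62 on 22 April, 0.64 on 11 April and 0.28 on 24 May). For MYC the sign was opposite. It had a log2 fold change of -0.29 ± 0.14 with all libraries (edgeR adjusted p = 0.145), and -0.51 ± 0.09 in the 30 (edgeR adjusted p = 4.39e-05), where 13% of all genes were called higher and 12.7% lower. In the 18 libraries it was -0.52 ± 0.13 (edgeR adjusted p = 0.0143), beside 8.59% of all genes higher and 7.74% lower. Among libraries with collagen, MYC stood at 110.9 to 161.8 CPM in insulin-resistant medium (n = 6) and 152.7 to 270.4 CPM in normal medium (n = 9). Without untreated replicate 1 or 3 in insulin-resistant medium the MYC difference passed at -0.36, and with the 30 libraries scaled to hepatocyte markers, which moved the median of all genes up by 0.51, it was -0.06 and did not. ODC1 had a log2 fold change of 0.30 ± 0.14 (edgeR adjusted p = 0.121), and 0.07 ± 0.07 in the 30 libraries. AZIN1 was at -0.21 ± 0.10 and passed, at -0.27, only without untreated replicate 7 in insulin-resistant medium, and was at -0.02 ± 0.08 in the 30. The other 5 genes had log2 fold changes of -0.21 (OAZ1) to 0.05 (AMD1), and of -0.16 (SMS) to 0.14 (MAX) in the 30. The stromal and hepatocyte marker medians were -0.26 and 0.06, and 0.40 and -0.30 in the 30 libraries.

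In insulin-stimulated cells, insulin-resistant medium lowered MYC, ODC1, SAT1, SRM, AMD1 and MAX. The comparison shares the stimulated libraries in normal medium with the first. Among all genes 21.4% were called lower and 16.1% higher (17.3% and 18.3% in the 30 libraries, 20.8% and 11.3% in the 18). MYC stood at 105.3, 125.8 and 141.4 CPM in insulin-resistant medium, against 246.9, 290.2 and 563 CPM in normal medium, with no overlap. The log2 fold change of MYC was -1.62 ± 0.15 (SE; edgeR adjusted p = 1.08e-09), the largest of the 9 in size, and -1.26 ± 0.09 in the 30 libraries. ODC1 stood at 231.5, 247.6 and 265.6 CPM in insulin-resistant medium, against 351.9, 478.1 and 794 CPM in normal medium, also apart, with a log2 fold change of -1.18 ± 0.15 (edgeR adjusted p = 2.10e-07) and -0.84 ± 0.08 in the 30. SAT1 stood at 103.3, 109.8 and 114.7 CPM in insulin-resistant medium, against 133.3, 206.8 and 412.9 CPM in normal medium, again apart. SAT1 had a log2 fold change of -1.12 ± 0.18 (edgeR adjusted p = 1.43e-05), and -0.74 ± 0.11 in the 30. Ranges apart in the lower direction were seen for these 3 of the 9 genes and for 6.37% of all genes. All 3 genes also passed with summed triplets (-1.57, -1.13 and -1.11 for MYC, ODC1 and SAT1). In the 22 April batch MYC and ODC1 passed at -1.42 and -0.97 and SAT1 did not at -0.89, and in the 11 April batch they stood at -1.70, -1.27 and -1.23, all past the threshold. In normal medium, stimulated replicate 5 of 22 April and replicate 6 of 11 April lack collagen. The 24 May batch holds no stimulated library in insulin-resistant medium.

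The falls of SRM, AMD1 and MAX in that comparison were smaller. SRM had a log2 fold change of -0.51 ± 0.15 (SE; edgeR adjusted p = 0.00735), AMD1 of -0.40 ± 0.08 (edgeR adjusted p = 0.000104) and MAX of -0.34 ± 0.08 (edgeR adjusted p = 0.000583), and in the 30 libraries -0.52, -0.30 and -0.32. Scaled to the hepatocyte markers, which moved the median of all genes up by 0.49, MAX and AMD1 turned to 0.17 and 0.14 and SRM to -0.01, none called, while MYC, ODC1 and SAT1 still passed at -0.99, -0.55 and -0.47. OAZ1 had a log2 fold change of 0.31 ± 0.15 (edgeR adjusted p = 0.0904), which passed at 0.48 without stimulated replicate 9 in normal medium, and 0.08 ± 0.07 in the 30. AZIN1 and SMS stood at 0.07 ± 0.10 and -0.08 ± 0.12, and at 0.01 and -0.01 in the 30. The stromal marker median was 0.94 and the hepatocyte one -0.67, with 17 of 22 hepatocyte markers called lower. In the 30 libraries these medians were 0.15 and -0.22.

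The response to insulin was tested for a difference between media with an interaction term, insulin-resistant minus normal. It was called below 0 for MYC, MAX, ODC1, AMD1 and SAT1, against 18.6% of all genes called below 0 and 9.21% called above (11.2% and 11% in the 30 libraries, 11.9% and 6.24% in the 18). SAT1 had a difference of log2 fold changes of -1.66 ± 0.25 (SE; edgeR adjusted p = 1.61e-05), ODC1 of -1.48 ± 0.20 (edgeR adjusted p = 4.54e-06) and MYC of -1.33 ± 0.20 (edgeR adjusted p = 1.74e-05). In the 30 libraries these were -0.97 ± 0.15, -0.90 ± 0.11 and -0.75 ± 0.12, all called. AMD1 differed by -0.45 ± 0.10 (edgeR adjusted p = 0.00171) and MAX by -0.36 ± 0.11 (edgeR adjusted p = 0.0115), and in the 30 by -0.26 and -0.46. In the 18 libraries AMD1 was not called at -0.22. MAX was not called at -0.25 to -0.29 without stimulated replicate 6 or 9 in normal medium or stimulated replicate 3 in insulin-resistant medium. The difference for OAZ1 was 0.52 ± 0.20 (edgeR adjusted p = 0.0534) with all libraries and 0.03 ± 0.10 in the 30. Those for SRM, SMS and AZIN1 were -0.33 ± 0.20, -0.06 ± 0.16 and 0.28 ± 0.14, and -0.52 ± 0.22, 0.14 ± 0.19 and 0.03 ± 0.12 in the 30, none called. Beside them the stromal and hepatocyte marker medians were 1.21 and -0.62, with 11 of 22 hepatocyte markers called below 0. In the 30 libraries these medians were -0.17 and 0.20, with 9 hepatocyte markers called above 0, and in the 18 they were -0.97 and 0.06, with 10 of 20 stromal markers called below 0. With 3 summed triplets a group none of the 9 passed, with MYC, ODC1 and SAT1 at -1.26, -1.42 and -1.63 (edgeR adjusted p = 0.171, 0.138 and 0.139). Within 22 April none passed, and within 11 April these 3 did, at -1.42, -1.70 and -1.86. On 11 April, stimulated replicate 6 in normal medium and untreated replicate 2 in insulin-resistant medium lack collagen. Their groups hold 2 libraries each on that date.

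**Figure D2:**
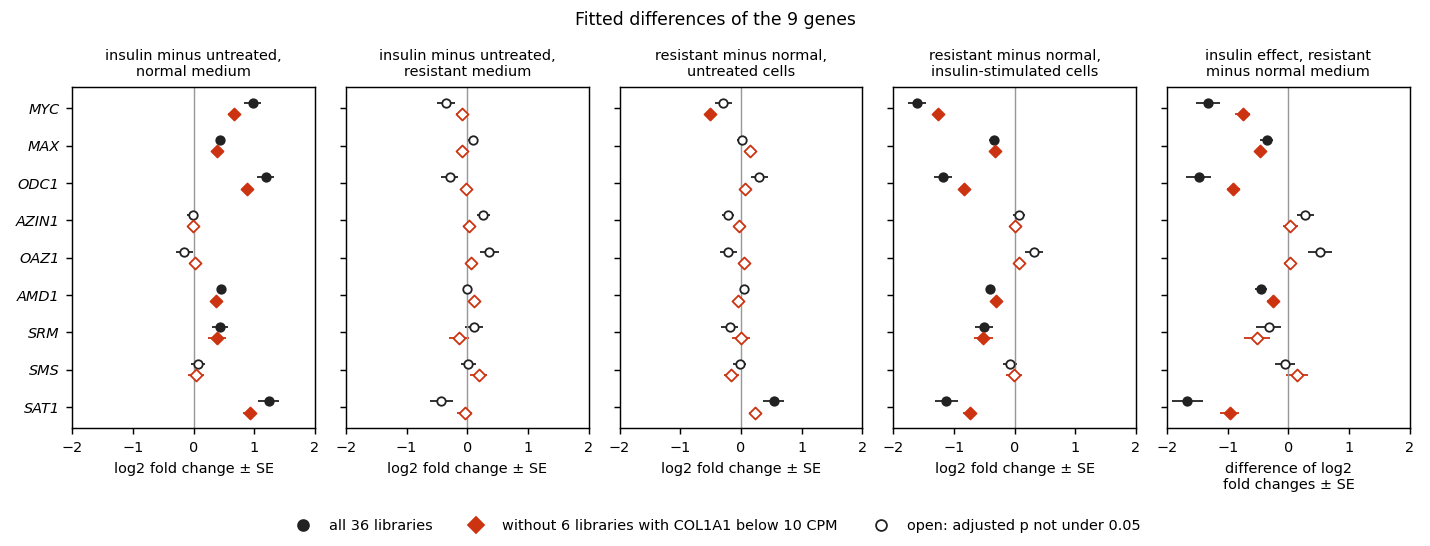
Fitted log2 fold changes ± SE of the 9 genes (horizontal axes) in the 4 comparisons and, at the right, the difference of the insulin effects between media, for all 36 libraries (circles) and without the 6 with COL1A1 below 10 CPM (diamonds), filled where the adjusted p is under 0.05. MYC, ODC1 and SAT1 lie farthest from 0 in both fits of the comparison of media in stimulated cells (-1.62, -1.18 and -1.12 with all libraries).

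Across the 4 groups, mean levels of MYC were 123 ± 11.2 and 157 ± 29.2 CPM in stimulated and untreated cells in insulin-resistant medium, and 374 ± 129 and 193 ± 37.1 CPM in normal medium (SD, n = 9 each). Stimulated cells in normal medium thus came first, and the order continued with untreated cells in normal medium, untreated cells in insulin-resistant medium and stimulated cells in insulin-resistant medium. With all libraries, neither neighbouring pair among the lower 3 groups differed past the threshold. The outer pair was not compared in a fit. These are stimulated cells in insulin-resistant medium (105.3 to 141.4 CPM) and untreated cells in normal medium (152.7 to 270.4 CPM). For ODC1 the means were 249 ± 11.4 and 305 ± 61.6 CPM in stimulated and untreated cells in insulin-resistant medium, and 562 ± 191 and 249 ± 28.1 CPM in normal medium, so that below the highest group the order was not that of MYC. SAT1 had means of 109 ± 3.90 and 151 ± 38.0 CPM in stimulated and untreated cells in insulin-resistant medium, and 243 ± 102 and 105 ± 20.1 CPM in normal medium. Its groups stood in the order of those of ODC1, whose lowest 2 means were close to equal, and in insulin-resistant medium neither gene's stimulated and untreated levels differed past the threshold.

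Ratios of counts within a library need no scaling between libraries, and depend on the 2 genes' lengths, so only their differences between libraries can be read. The ratio of ODC1 to SAT1 had medians of 2.29 and 2.05 in stimulated and untreated cells in insulin-resistant medium, and 2.44 and 2.36 in normal medium, with all libraries between 1.88 and 3.14. The ratio thus kept a narrow range while ODC1 itself ran between 212.1 and 794 CPM. MYC over MAX had medians of 2.72 and 3.81 in stimulated and untreated cells in insulin-resistant medium, and 5.99 and 4.65 in normal medium. In stimulated cells the 2 media were apart, at 2.53 to 3.32 in insulin-resistant and 4.62 to 10.7 in normal medium, and in the 6 libraries with collagen in normal medium the range was 4.62 to 7.32. ODC1 over the transcript of its antizyme, OAZ1, stood at 0.582 to 2.68 in stimulated and 0.362 to 0.570 in untreated cells in normal medium, which are apart, and at 0.582 to 1.43 in the stimulated libraries with collagen. In insulin-resistant medium it stood at 0.325 to 0.477 in stimulated and 0.385 to 1.23 in untreated cells, of which the 6 with collagen stood at 0.385 to 0.540. SRM over SMS, the 2 synthases, had medians of 1.47 and 1.15 in stimulated and untreated cells in insulin-resistant medium, and 1.70 and 1.28 in normal medium, with overlap in both media. Among libraries with collagen, the untreated median in insulin-resistant medium was 1.36. With FN1 also below 20000 CPM the order there was the opposite. Stimulated replicates 1 to 3 stood at 0.837 to 0.960 and untreated replicates 4 to 6 at 1.06 to 1.31.

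**Figure D3:**
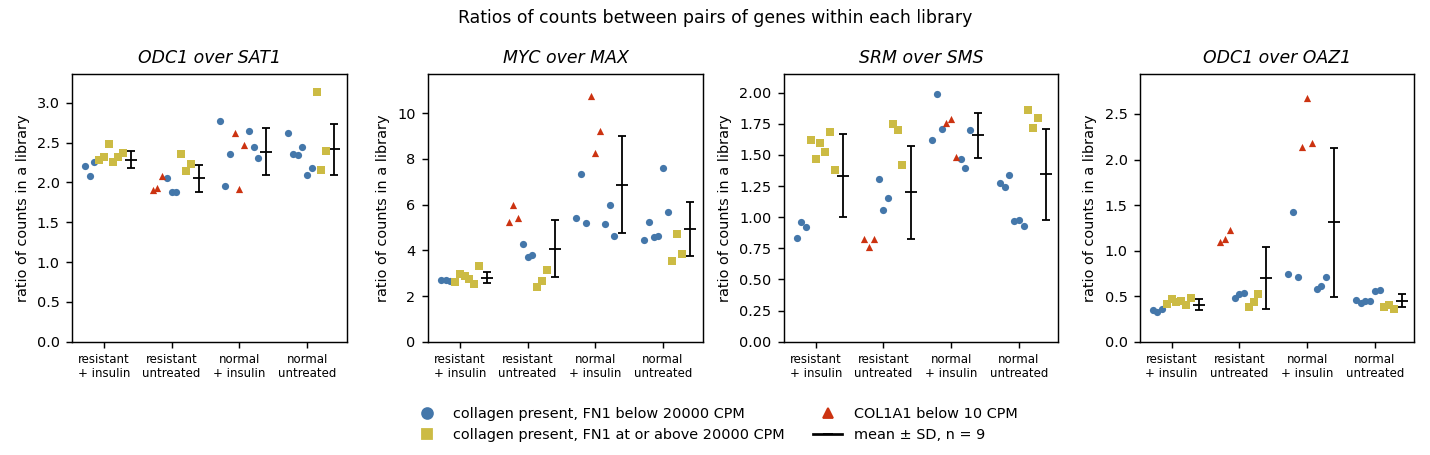
Ratios of counts for 4 pairs of genes (vertical axes, no unit) in each library by group, with points marked by collagen and FN1 content and bars giving the mean ± SD of 9 libraries. ODC1 over SAT1 stays between 1.88 and 3.14 in all libraries, while ODC1 over OAZ1 reaches 2.68 in stimulated libraries without collagen.

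The other genes of the MYC and MAX network showed changes in both directions. Of 10 tested (of 11 listed), insulin in normal medium raised 4 and lowered 2, with a median log2 fold change of 0.15 beside -0.03 for all genes, of which 19.1% were called higher and 12.9% lower. MYCL, a MYC paralog, rose by 1.66 ± 0.19 (SE) on the log2 scale and MXD1, which competes with MYC for MAX and represses, by 1.69 ± 0.17. MLX, the partner of the glucose-sensing factors of the network, rose by 0.45 ± 0.06 and MGA, a repressive MAX partner, by 0.40 ± 0.12. In stimulated cells, insulin-resistant medium lowered 4 and raised 1, with a median of -0.29 beside 0.05 for all genes, where 21.4% were called lower and 16.1% higher. MXD1 was at -1.88 ± 0.18, MYCL at -1.34 ± 0.19 and MLX at -0.55 ± 0.07, and MXD4, of the MXD family of repressors, at 0.77 ± 0.16. In untreated cells the medium lowered MXD3 (-1.15 ± 0.30) and raised none, beside 7.98% of all genes lower and 12.4% higher. Within the 30 libraries it lowered 2 and raised none, beside 12.7% and 13%. In the 30 libraries insulin in normal medium raised 3 and lowered 1, beside 16.6% and 17.1% of all genes. Insulin-resistant medium lowered 3 and raised 1 in their stimulated cells, beside 17.3% and 18.3%. The edgeR interaction was called below 0 for 4, among them MXD1 (-1.99 ± 0.24), MYCL (-1.84 ± 0.27) and MLX (-0.48 ± 0.09), and above 0 for 2, among them MXD3 (1.55 ± 0.43). Of all genes 18.6% were called below 0 and 9.21% above.

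Of 24 other genes of polyamine and methionine metabolism tested (of 25 listed), insulin in normal medium raised 10 and lowered 2, with a median log2 fold change of 0.05, beside 19.1% of all genes higher and 12.9% lower. SMOX, which oxidises spermine, rose by 1.72 ± 0.15 (SE) on the log2 scale, ARG2, the mitochondrial arginase that makes ornithine, by 0.94 ± 0.17, ENOPH1, of the methionine salvage pathway, by 0.68 ± 0.09, and EIF5A2, an isoform of the factor that carries the spermidine-derived residue hypusine, by 0.42 ± 0.07. In stimulated cells, insulin-resistant medium lowered 13 and raised 4, with a median of -0.23, beside 21.4% of all genes lower and 16.1% higher. SMOX fell by 1.69 on the log2 scale, ARG2 by 1.16, ENOPH1 by 0.73 and ATP13A3, a polyamine transporter, by 0.42. In untreated cells the medium raised 2 and lowered 2, counts near the shares over all genes (12.4% higher and 7.98% lower): SLC18B1, a vesicular polyamine transporter, was at 0.85 ± 0.18, ATP13A2, a lysosomal one, at 0.44 ± 0.12, DHPS, which starts hypusine synthesis, at -0.27 ± 0.08 and APIP, of methionine salvage, at -0.24 ± 0.08. The edgeR interaction was called below 0 for 9 and above 0 for 4 (6 and 2 in the 30 libraries), with SMOX at -2.08 ± 0.22, ARG2 at -1.35 ± 0.24, SLC18B1 at -1.34 ± 0.25 and ENOPH1 at -0.82 ± 0.14. Of all genes 18.6% were called below 0 and 9.21% above (11.2% and 11% in the 30). The numbers called changed when the libraries without collagen were left out, which also leaves fewer libraries in the fit. In the 30 libraries insulin in normal medium raised 6 and lowered 3, beside 16.6% and 17.1% of all genes, and the medium in stimulated cells lowered 8 and raised 2, beside 17.3% and 18.3%, while SMOX kept 1.39 ± 0.10 and -1.34 ± 0.11.

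Of 24 MYC target genes, all tested, insulin in normal medium raised 15 and lowered none, with a median log2 fold change of 0.36, beside 19.1% of all genes higher and 12.9% lower. NOP56, of the particles that methylate ribosomal RNA, rose by 1.12 ± 0.14 (SE) on the log2 scale, POLR1B, a subunit of RNA polymerase I, by 1.07 ± 0.13, DKC1, which modifies ribosomal RNA, by 0.97 ± 0.12 and GNL3, a nucleolar GTP-binding protein, by 0.64 ± 0.09. In stimulated cells, insulin-resistant medium lowered 16 and raised none, with a median of -0.40, beside 21.4% of all genes lower and 16.1% higher. There NOP56, POLR1B, DKC1 and GNL3 fell by 1.21, 1.18, 1.10 and 0.78 on the log2 scale. In untreated cells it lowered 3 and raised 1, beside 7.98% of all genes lower and 12.4% higher. NPM1, FBL and IMPDH2, of the nucleolus and of guanine nucleotide synthesis, were at -0.25 ± 0.07, -0.29 ± 0.08 and -0.23 ± 0.04, and CCND2 (cyclin D2) at 1.10 ± 0.20. In the 30 libraries insulin in normal medium raised 12 and lowered 0, beside 16.6% and 17.1% of all genes. Insulin-resistant medium lowered 15 and raised 0 in their stimulated cells, beside 17.3% and 18.3%. It lowered 6 and raised 1 in their untreated cells, beside 12.7% and 13%. The edgeR interaction was called below 0 for 13 and above 0 for none (11 and none in the 30 libraries), with NOP56 at -1.52 ± 0.20 and POLR1B at -1.38 ± 0.19. Of all genes 18.6% were called below 0 and 9.21% above (11.2% and 11% in the 30). In insulin-resistant medium insulin moved no gene of the 3 lists past edgeR's threshold with all libraries or in the 30, where none of all genes tested passed either. In the 18 it lowered 1 of them, ATP13A3 (-0.54 ± 0.13; edgeR adjusted p = 0.0369), where the groups compared hold 3 libraries each and share no batch date.

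**Figure D4:**
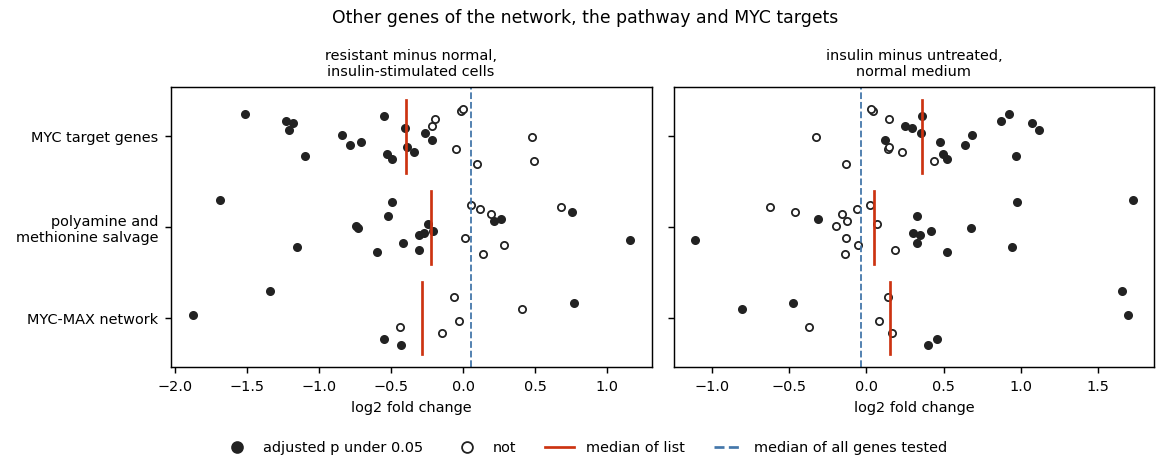
Log2 fold change (horizontal axes) of each other gene of the MYC and MAX network, of polyamine and methionine metabolism and of the MYC target list, in stimulated cells between media (left) and with insulin in normal medium (right), filled where the adjusted p is under 0.05, with list medians (solid) and the median of all genes (dashed). The MYC target median is 0.36 with insulin and -0.40 between media, beside -0.03 and 0.05 for all genes.

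The genes whose profile lay closest to those of MYC and ODC1 were looked up over the 12 triplet means, among 11255 genes with a mean of at least 5 CPM, by the mean absolute difference of centred log2 levels. For ODC1, which ranged over 1.83 on that scale, they were NOP56 (0.0433), RRP12 (0.0452), POLR1B (0.0472), USP6NL (0.0555) and LYAR (0.0587). SAT1 was in place 11 for ODC1, at 0.0885, and MYC in place 800, at 0.254. For MYC, which ranged over 2.27, close profiles included ENSG00000266709, which has no symbol (0.0826), SNHG1 (0.100) and NAGS (0.109). Seen from MYC, ODC1 was in place 167 and SAT1 in place 502. OAZ1 lay far from both, in place 8562 for MYC and 8751 for ODC1. The 12 means share groups, batches and the presence or absence of collagen, so these distances describe likeness and carry no test.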

How the data were processed

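Poly-A RNA of 36 libraries was sequenced from strand-specific libraries, per the labels' protocols. The deposited table holds expected counts, estimated reads per Ensembl gene that the authors did not scale to a common total, and 15.5% of the values are not whole. They were rounded before testing. STAR, Salmon and build GRCh37 are named in the submitters' processing notes, with settings not given in the sources used here. Symbols came from a GRCh38 annotation by Ensembl identifier (51994 genes, 90.0%). Promoter coordinates are those of GRCh38.p14 and were not joined to the counts.

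Groups and batch dates came from the labels. Each group had a coefficient beside a term for the batch in edgeR 4.0.16 (R 4.3.3; TMM, filterByExpr for that design, robust quasi-likelihood F-test), with Benjamini-Hochberg adjustment over 18573 genes and a threshold of 0.05. Intervals are 95% intervals of the coefficient. The batches of 22 April, 11 April and 24 May held 3, 6 and 0 stimulated and 4, 2 and 3 untreated libraries in insulin-resistant medium, and 5, 2 and 2 stimulated and 4, 2 and 3 untreated ones in normal medium. The fit was run on simulated counts, drawn independently for each library. Likeness within triplets and differences in collagen were not simulated, so that run cannot show how the p-values hold under them. No 2 libraries of a group agreed within sampling noise, with a lowest chi-square per gene of 4.20 over 144 pairs. With at least 976 counts per gene and library, counting adds little to the spread between libraries of these 9 genes.

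The 9 genes, the lists, the markers and the tests were chosen with earlier results of these data known, including the limit of 10 CPM of COL1A1. The text names the 9 genes, up to 4 called genes per list and comparison with the smallest adjusted p, and the 5 closest profiles to MYC and ODC1, of which some for MYC are not reported here. Of 121 list entries 120 were found. Alternatives were DESeq2 1.42.0, its size factors and averaged TMM factors in edgeR, scaling to hepatocyte markers, other filters, no batch term, a replicate block, summed triplets, single batches, subsets of libraries and leaving out each library. A filter by group, and the 30 libraries scaled to hepatocyte markers, were added after seeing the data.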

Additional observations from a re-analysis of the deposited data

Results flagged for a closer look

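The effect of insulin differed between media, by edgeR's interaction term with all 36 libraries, for 5 of the 9 genes. The differences of log2 fold changes, insulin-resistant minus normal medium, were -1.33 for MYC, -0.36 for MAX, -1.48 for ODC1, -0.45 for AMD1 and -1.66 for SAT1. Libraries without collagen are in the untreated group in insulin-resistant medium and in the stimulated group in normal medium, which enter this difference with the same sign. Without these libraries the difference was smaller for MYC, ODC1, AMD1 and SAT1 and still passed for all 5. A test for a single library far from the rest of its group found none in the 36 sets of 9 values. It looks only at the highest and lowest value, so it could not flag stimulated replicate 2 in normal medium. That library stood at 418.2, 694.3 and 355.9 CPM for MYC, ODC1 and SAT1, under a library without collagen each time. The next library with collagen in its group stood at 290.2, 478.1 and 206.8 CPM.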

How the results depend on the processing

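The counts of the 9 genes called are given by setting. With summed triplets 2 were called for insulin in normal medium (6 in the fit reported), 0 for insulin-resistant medium in untreated cells (1), 3 for that medium in stimulated cells (6) and 0 for the interaction (5), where of all 20446 genes 711, 485, 944 and 5 were called. In the 22 April batch the numbers were 2, 0, 2 and 0 (950, 611, 1105 and 4 of 18394 genes) and in the 11 April batch 3 and 0, with 3 for the interaction (866, 375 and 636 of 18397 genes). The 24 May batch gave 0 for the medium in untreated cells (1808 of 19228 genes). Scaled to hepatocyte markers 2 were called for the medium in untreated cells and 3 for the interaction (3632 and 2054 of 18573 genes). The 30 libraries scaled in that way moved the median of all genes up by 0.51 for the medium in untreated cells, where 12618 of 18573 genes were called higher. The 7 of the 9 called there, with AZIN1 at 0.44, OAZ1 at 0.50 and SRM at 0.47, turned in sign, stand beside a median of 0.47 for all genes. For insulin in normal medium AZIN1 and OAZ1 turned to 0.30 and 0.34, beside a median of 0.31 for all genes. AZIN1 was 0.26 in the 18 libraries, and MAX and AMD1 turned to 0.17 and 0.14 between media in stimulated cells scaled to hepatocyte markers, beside a median of 0.54. Without the batch term insulin in insulin-resistant medium called 1 gene, AZIN1, and 2063 of all genes instead of 0, and with the replicate block it called 2545 of all genes and none of the 9. Leaving out 1 library gave 0 to 2 genes for the medium in untreated cells. In those 36 fits OAZ1 passed in 10 for the interaction (0.55 to 0.69), namely without untreated replicate 5 or stimulated replicate 1, 7, 8 or 9 in normal medium or any 1 of untreated replicates 4 to 8 in insulin-resistant medium. Of 1620 results 1596 kept their side of the threshold, 14 gained and 10 lost a call. Of 693 results under the other alternatives 618 kept theirs, 52 lost and 15 gained a call, and 8 turned in sign with a call on either side. Same-numbered libraries did not regularly deviate together (54 pairs, correlations -0.80 to 0.72, median 0.06, and 0 of 36 libraries closest to their own number in every other group). Collagen and FN1 class enter these deviations and fall on different numbers between groups. The check therefore cannot decide whether the numbers pair the libraries. With the replicate block 5 genes passed for insulin in normal medium (SRM lost at 0.38), OAZ1 passed between media in stimulated cells at 0.49, where SRM was lost at -0.44, and in the interaction OAZ1 passed at 0.72 and MAX was lost at -0.25. The cause of these changes was not tested. Batches and triplets have few libraries each, and triplet fits have 12 samples.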
